A study of Homo sapiens with 6 samples.

Results

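The genes of the mitochondrial genome were followed in HEK293 cells, a human embryonic kidney line used to make recombinant protein, which here carried a luciferase reporter in both groups. The mutant group was labelled as deleted for CASP8AP2 with CRISPR, and the parental group was the same reporter line without that deletion, with 3 libraries in each. The sources used here give neither the number of mutant clones nor whether replicates were separate cultures, so p-values may measure technical spread alone. Members were all genes of the deposited table whose name starts with MT-, 37 of 56794 genes. They were 13 mRNAs, 2 rRNAs and 22 tRNAs, each with 1 transcript, and 30 of them had reads.

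The human mitochondrial genome is a small circle in many copies per cell. Both of its strands are copied into long RNAs by the polymerase POLRMT, and most tRNAs sit between the other genes, where their excision by RNase P and ELAC2 sets the mRNAs and rRNAs free. The mRNAs encode core subunits of the respiratory chain and of ATP synthase, and the rRNAs and tRNAs serve the ribosome inside the organelle. MT-ND6 and 8 tRNA genes are called light-strand genes after their template, and the annotation gives them as minus. All other members are heavy-strand genes, given as plus, and strand names below follow the template.

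The tRNA genes with the most reads were MT-TA, MT-TN and MT-TS1, for alanine, asparagine and serine, all on the light strand, and their sequences are shown for that reason. MT-TA and MT-TN lie between MT-ND2 and MT-CO1 in a cluster with MT-TC and MT-TY, for cysteine and tyrosine, which are printed with them. The cluster held 110 of 162, 17 of 34 and 4 of 16 tRNA reads in the mutant libraries from deepest to shallowest, against 13 of 21, 7 of 13 and 7 of 13 in the parental ones. Its share was thus lowest, at 25%, in the shallowest mutant library and between 50 and 67.9% in the other libraries. Beside these, MT-TG and MT-TR, for glycine and arginine, show heavy-strand genes beside MT-ND3 that had no read in any library. Sequences are the RNA-sense strand of GENCODE release 29 on build hg38, written 5′ to 3′ as DNA letters, and the capitals mark the anticodon.
MT-TA, chrM:5587-5655, minus strand: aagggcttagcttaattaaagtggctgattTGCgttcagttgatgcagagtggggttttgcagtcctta
MT-TN, chrM:5657-5729, minus strand: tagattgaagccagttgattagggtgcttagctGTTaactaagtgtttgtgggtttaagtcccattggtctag
MT-TC, chrM:5761-5826, minus strand: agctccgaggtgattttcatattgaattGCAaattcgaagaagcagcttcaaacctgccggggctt
MT-TY, chrM:5826-5891, minus strand: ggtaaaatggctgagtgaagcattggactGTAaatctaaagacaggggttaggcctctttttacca
MT-TS1, chrM:7446-7514, minus strand: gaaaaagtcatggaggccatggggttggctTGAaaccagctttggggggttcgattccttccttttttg
MT-TG, chrM:9991-10058, plus strand: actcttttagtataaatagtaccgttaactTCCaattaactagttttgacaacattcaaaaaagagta
MT-TR, chrM:10405-10469, plus strand: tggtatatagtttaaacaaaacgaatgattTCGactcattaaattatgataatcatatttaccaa

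Levels are length-scaled abundances as deposited, given as group means with the authors' added 1 taken off. For 21 of the 30 members with reads, whole reads in each library were found that gave back the deposited means and p-value to within rounding, and these give values per library; for the other 9 only group means are known. Estimated depth was 57.5, 15 and 13.3 M reads (M, mega) in the mutant libraries, against 15.3, 11.6 and 9.19 M in the parental ones. Libraries are given below in that order, as the deepest, the middle and the shallowest of their group, because their replicate numbers were not known, and the deepest mutant library stands apart in depth. CASP8AP2 itself had an abundance of 15.7 in the mutant and 15.9 in the parental group, and the place of the deletion is not stated, so its RNA level does not check the labels. VIM, which HEK293 cells express, stood at 530 in mutant against 425 in parental cells, the neurofilament gene NEFL at 434 in mutant against 35.7 in parental cells, and 5 blood and liver genes at 0.205 or less in both groups.

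The mitochondrial mRNAs stood slightly higher in the mutant group, led by MT-ND3, MT-CO1 and MT-ATP6, and none passed the test over all transcripts. Of the 13 mRNAs 11 lay higher and 2 lower, and their median log2 ratio was 0.18, beside -0.01 over 14856 genes with an abundance of at least 1, of which 49.4% lay higher. Their summed abundance was 54427 in the mutant and 47857 in the parental group, which was 11% of all abundance in mutant and 9.65% in parental cells, and 6.36% of reads in mutant and 5.56% in parental cells. None of the 30 members with reads had an adjusted p under 0.05 in the table the authors deposited. That call was made for 0.0221% of the 140552 transcripts with a p-value there. The members' adjusted p-values ran from 0.658 to 0.997. An unadjusted p under 0.05 was held by 1 member, MT-ND3. Of those 140552 transcripts 5.79% held one in either direction, 3.3% higher and 2.48% lower in the mutant group. In bulk libraries, fewer cells of a kind and less RNA per cell cannot be told apart.

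**Figure D1:**
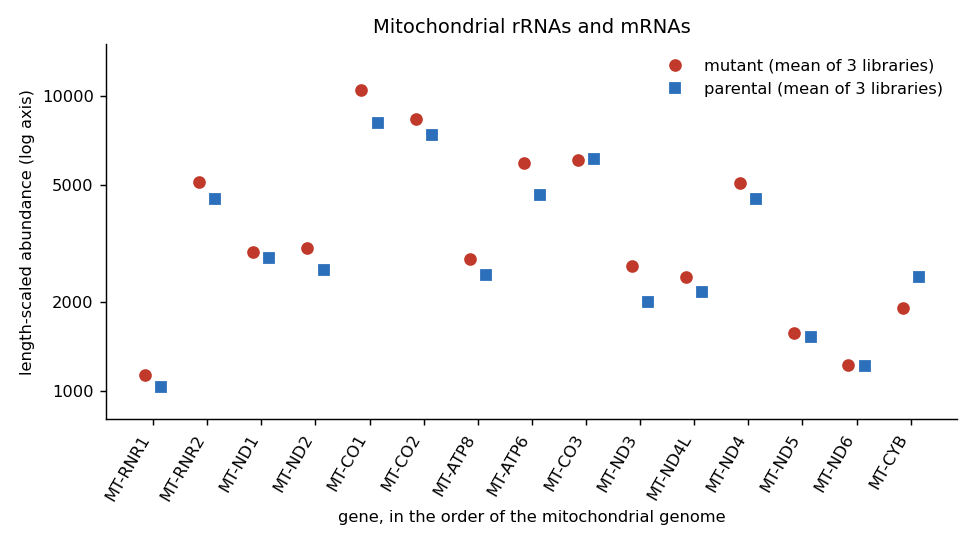
Group mean abundance (log axis) of the 2 mitochondrial rRNAs and 13 mRNAs in the order of the genome, mutant as circles and parental as squares, each a mean of 3 libraries. MT-CO1 was the highest in both groups at 10471 in mutant and 8105 in parental cells, and MT-CYB and MT-CO3 were the members that lay lower in the mutant group.

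Complex I, the NADH dehydrogenase where electrons enter the chain, has 7 subunits coded here. All 7 lay higher in the mutant group, with log2 ratios from 0.01 to 0.41 and summed abundances of 18938 in mutant against 16759 in parental cells. MT-ND3, a small membrane subunit near the quinone site (chrM:10059-10404), had 2486, 2718 and 2761 in the mutant libraries, against 2012, 1766 and 2217 in the parental ones. The groups did not overlap, and every mutant library was above the highest parental one. The mean was 2655 ± 148 in the mutant and 1998 ± 226 in the parental group (SD, n = 3 each), 1.33 times, with an exact two-sided permutation p of 0.1, the smallest that 3 against 3 libraries can give. For MT-ND3 the authors' deposited table gave p 0.0174, adjusted 0.658.

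MT-ND4L and MT-ND4 encode further membrane subunits and are translated from 1 shared mRNA, in which their reading frames overlap. MT-ND4L had abundances of 2543, 2304 and 2447 in mutant libraries, against 2280, 2214 and 2014 in parental ones. These groups did not overlap either, although the lowest mutant library was only slightly above the highest parental one, and the exact permutation p was 0.1. MT-ND4 had 5702, 4339 and 5167 in mutant libraries, against 4657, 4374 and 4432 in parental ones, which overlapped (exact permutation p 0.4). The abundance of MT-ND4L over that of MT-ND4 was 0.484 ± 0.0434 in the mutant and 0.483 ± 0.0264 in the parental group (SD, n = 3 each), a difference smaller than the spread between libraries. MT-ND5 had 1662, 1338 and 1724 in the mutant libraries, against 1604, 1557 and 1394 in the parental ones, and these overlapped (exact permutation p 0.6). Its log2 ratio of 0.05 turned to -0.02 without the shallowest mutant library and to -0.01 without the shallowest parental one.

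Of the other complex I members only group means are known. MT-ND1 had an abundance of 2944 in the mutant and 2811 in the parental group, and MT-ND2 had 3044 in mutant against 2561 in parental cells. MT-ND6, the light-strand mRNA, had the smallest difference of the mRNAs, 1220 in mutant against 1213 in parental cells, for which the authors' deposited table gave p 0.989. The labels name no strand-marking step, and without strand the reads of MT-ND6 cannot be told apart from RNA of the opposite strand.

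The messages of complex IV, which hands electrons to oxygen, were the most abundant in both groups, followed by MT-ATP6 of ATP synthase. MT-CO1, the catalytic subunit (chrM:5904-7445), had 10471 in the mutant and 8105 in the parental group, a ratio of 1.29. MT-CO2, which takes electrons from cytochrome c, had 8360 in mutant against 7369 in parental cells, and MT-CO3, a structural subunit, 6040 in mutant against 6096 in parental cells. For these the authors' deposited table gave p 0.132, 0.206 and 0.876. MT-ATP6, which forms part of the proton channel, had 5907 in mutant against 4624 in parental cells (p 0.261) and MT-ATP8, a small membrane subunit beside it, 2797 in mutant against 2474 in parental cells (p 0.33), in the same table. MT-ATP6 and MT-ATP8 also share a message with overlapping frames, and MT-ATP6 stood at 2.11 times the abundance of MT-ATP8 in the mutant group and 1.87 times in the parental group.

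MT-CYB, the cytochrome b of complex III (chrM:14747-15887), differed more among the mutant libraries than between the groups. It had 1235, 1566 and 2940 in the mutant libraries, against 2099, 2353 and 2839 in the parental ones. The mutant libraries lay both below and above all parental libraries, with the deepest lowest and the shallowest highest. The mean was 1914 ± 904 in the mutant and 2430 ± 376 in the parental group (SD, n = 3 each; exact permutation p 0.5). The highest mutant library was 2.38 times the lowest, a range that 30 of 277 genes outside the mitochondrial genome reached or passed, those turned into whole reads with at least 100 in every library, where the median range was 1.51-fold. Without the shallowest mutant library the log2 ratio of MT-CYB was -0.79, and without the deepest one it was -0.11, against -0.34 with all libraries.

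Of the 5 mRNAs known in each library, MT-ND3 and MT-ND4L had groups that did not overlap, both higher in the mutant group. Among 2308 genes outside the mitochondrial genome with 1 transcript and an abundance of at least 1, 751 were turned into whole reads. Abundance times length was capped for them, unlike for the members. Of the 751, 9.45% lay higher and 14.2% lower without overlap. The summed abundance of the 5 was 13627, 12264 and 15039 in mutant libraries, against 12653, 12264 and 12895 in parental ones. The groups overlapped, with means of 13643 ± 1387 in mutant and 12604 ± 318 in parental libraries (SD, n = 3 each; exact permutation p 0.4). Without MT-CYB the other 4 summed to 11730 ± 905 in mutant and 10174 ± 337 in parental libraries (SD, n = 3 each), a ratio of 1.15, with no overlap and an exact permutation p of 0.1; leaving MT-CYB out was chosen after its spread had been seen.

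**Figure D2:**
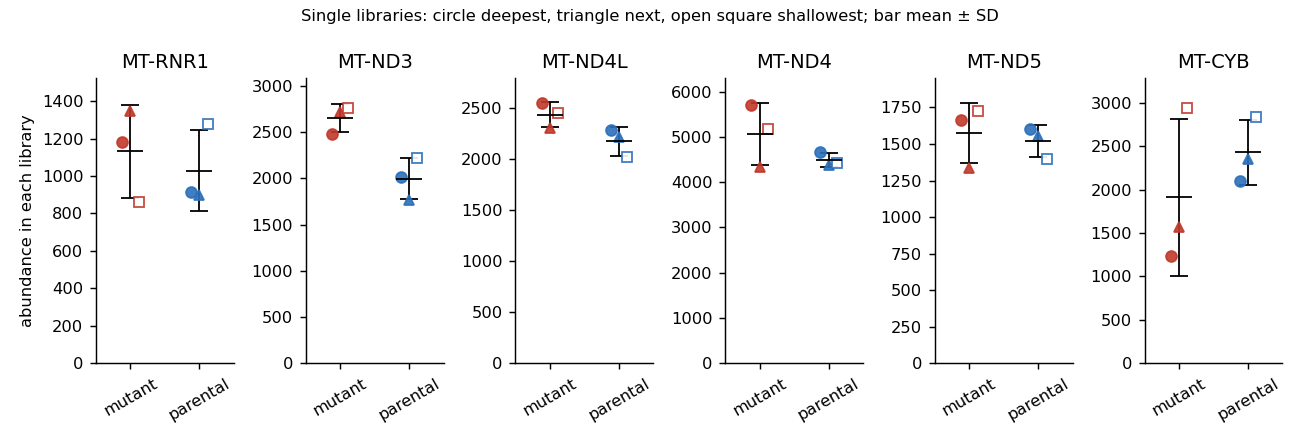
Abundance in each library (linear axes from 0) of MT-RNR1 and the 5 mRNAs that could be turned into whole reads, mutant left of parental, with the mean ± SD of 3 libraries. MT-ND3 and MT-ND4L do not overlap between groups, and the MT-CYB mutant libraries spread from 1235 to 2940.

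The rRNAs, which form the core of the mitochondrial ribosome, did not separate the groups. MT-RNR1, the small-subunit 12S rRNA (chrM:648-1601), had 1184, 1350 and 861 in the mutant libraries, against 914, 897 and 1277 in the parental ones. The lowest value of all was in the shallowest mutant library, which had the highest MT-CYB, and the groups overlapped. The mean was 1132 ± 249 in the mutant and 1029 ± 215 in the parental group (SD, n = 3 each; exact permutation p 0.7). The log2 ratio of MT-RNR1 was 0.14 with all libraries. It was 0.30 without the shallowest mutant library, -0.01 without the middle mutant library and 0.32 without the shallowest parental library. MT-RNR2, the large-subunit 16S rRNA (chrM:1671-3229), had 5102 in the mutant and 4482 in the parental group, and the authors' deposited table gave p 0.883.

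Within each group MT-RNR2 stood at 4.51 times the abundance of MT-RNR1 in mutant libraries, and 4.35 times in parental libraries. MT-RNR1 was below every mRNA in abundance in both groups. The 2 rRNAs summed to 6233 in the mutant and 5512 in the parental group, a ratio of 1.13, beside 1.14 for the mRNAs. MT-RNR1 over the sum of the 5 mRNAs was 0.0847 ± 0.0265 in mutant and 0.0815 ± 0.0152 in parental libraries (SD, n = 3 each; exact permutation p 1). The sources used here do not say whether poly(A) RNA was selected or rRNA removed, and levels across these RNA classes are those of the libraries.

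The tRNAs were near the limit of detection, and their signal lay on the light strand. Of the 22 genes 15 had at least 1 read, all 8 on the light strand and 7 of 14 on the heavy strand. Light-strand tRNAs held 193 of 212 tRNA reads in the mutant group, 91% (95% exact interval 86.4 to 94.5), and 42 of 47 in the parental group, 89.4% (76.9 to 96.5). By library the light-strand share was 91.4, 88.2 and 93.8% in mutant libraries, against 95.2, 92.3 and 76.9% in parental libraries, so it was the larger part in each. These intervals cover counting error only, since reads without molecular identifiers are not independent molecules. As for MT-ND6, reads on a light-strand tRNA cannot be told apart from heavy-strand RNA that runs through it.

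MT-TA had the most tRNA reads, 62, 9 and 2 in mutant libraries, against 10, 2 and 4 in parental ones. As abundance this was 12.6, 7.03 and 1.76 in mutant libraries, against 7.67, 2.02 and 5.11 in parental ones, so the groups overlapped, and without the deepest mutant library the log2 ratio was -0.14, against 0.46 with all. MT-TN had 34, 6 and 2 reads in the mutant libraries, against 1, 4 and 1 in the parental ones. Its abundance was 4.22 ± 2.45 in the mutant and 1.92 ± 1.67 in the parental group (SD, n = 3 each; exact permutation p 0.2). Its log2 ratio was 0.84, or 0.47 without the deepest mutant library and 1.41 without the middle parental one. MT-TY had 9, 2 and 0 reads in the mutant libraries against 0, 0 and 2 in the parental ones, which was a mean abundance of 1.18 in mutant and 0.89 in parental cells. MT-TC had 5, 0 and 0 reads in mutant against 2, 1 and 0 in parental libraries, and scaled for depth its mean abundance was 0.355 in mutant and 0.887 in parental cells, the lower one in the mutant group.

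MT-TS1, which reads serine codons of the UCN box and lies just after MT-CO1 on the other strand, was the tRNA whose groups did not overlap. That is 1 of the 15 tRNAs with reads, and 1 of the 6 tRNAs with an abundance of at least 1. Among decoded genes outside the mitochondrial genome, which were taken at that same minimum, 9.45% lay higher without overlap. It had 25, 6 and 6 reads in the mutant libraries, against 3, 3 and 0 in the parental ones. Scaled for depth and length this was 5.10, 4.69 and 5.29 in mutant libraries, against 2.30, 3.04 and 0 in parental ones, with means of 5.03 ± 0.309 in mutant and 1.78 ± 1.58 in parental libraries (SD, n = 3 each). The 3 mutant libraries all lay above the parental ones, but at counts as low as 6 reads their closeness says little about precision. The count of 0 in the shallowest parental library allows an abundance of up to 3.89 at 68 bases, taking 3 reads as the limit. The exact permutation p was 0.1, the smallest possible here, and the authors' deposited table gave p 0.0996, adjusted 0.703. Without any 1 library the log2 ratio of MT-TS1 ran from 0.72 to 1.49, against 1.12 with all.

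The remaining light-strand tRNAs had few reads. MT-TE, for glutamate, had 8, 2 and 3 in the mutant libraries, against 2, 2 and 2 in the parental ones, and its mean abundance was 1.95 in mutant against 2.04 in parental cells. MT-TQ, for glutamine, had 5, 4 and 2 in mutant libraries, against 2, 0 and 1 in parental ones, and a mean abundance of 1.89 in mutant and 0.898 in parental cells. MT-TP, for proline, had 1 read, in the middle mutant library.

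On the heavy strand 24 reads fell on 7 tRNAs. MT-TF and MT-TV, for phenylalanine and valine, which flank MT-RNR1, had 5 reads each, all in mutant libraries. By library these were 3, 2 and 0 for MT-TF and 4, 1 and 0 for MT-TV. Their mean abundances of 0.704 and 0.532 in the mutant group were below what a count of 0 allows in any parental library. That limit, taken at 3 reads, was 2.24 or more at 71 bases. MT-TM, for methionine, had 5 reads in the mutant and 2 in the parental group, but scaled for depth its mean abundance was 0.345 in mutant and 0.864 in parental cells. MT-TL1, for leucine, had 1 read in the mutant and 2 in the parental group (mean abundance 0.0625 in mutant and 0.702 in parental cells). MT-TI, for isoleucine, had 1 read in the mutant and 1 in the parental group (mean abundance 0.068 in mutant and 0.256 in parental cells), and MT-TW and MT-TH, for tryptophan and histidine, 1 each in the mutant group. MT-TD, MT-TK, MT-TG, MT-TR, MT-TS2, MT-TL2 and MT-TT had no read in any library. For a tRNA of 68 bases, such as MT-TG, a count of 0 allows an abundance of up to 0.621 in the deepest mutant library and 3.89 in the shallowest parental one, taking 3 reads as the limit. Those without a read include the tRNAs on both sides of MT-ND3, whose own abundance was 2655 in the mutant and 1998 in the parental group.

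**Figure D3:**
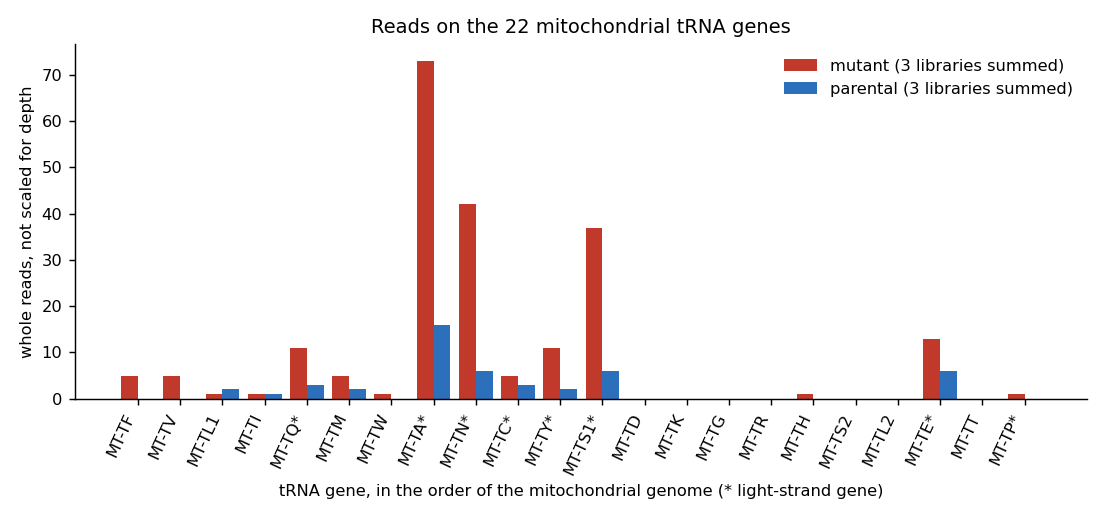
Whole reads on each of the 22 mitochondrial tRNA genes in genome order, mutant bars left of parental bars, each the sum of 3 libraries and not scaled for depth; asterisks mark light-strand genes. MT-TA has the tallest bar in both groups, at 73 reads in mutant and 16 in parental libraries, and 7 heavy-strand genes have none.

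Summed over the class, tRNA abundance was 32.7, 26.2 and 14 in mutant libraries, against 16.1, 12.9 and 16.5 in the parental ones. The deepest and the middle mutant library were above all parental libraries, and the shallowest mutant library was below most of them. The mean was 24.3 ± 9.53 in the mutant and 15.2 ± 1.98 in the parental group (SD, n = 3 each), a ratio of 1.6 with an exact permutation p of 0.3. Without the deepest mutant library the ratio was 1.32, and without the shallowest one it was 1.94. Set against the reads of the 5 mRNAs, the tRNAs had 164, 155 and 63.7 reads for each M mRNA reads in mutant libraries, against 84.8, 70.9 and 86.6 in parental ones (exact permutation p 0.4). Of the 6 tRNAs with an abundance of at least 1, all on the light strand, 5 lay higher and 1 lower. Their median log2 ratio was 0.53. MT-TQ and MT-TY passed that minimum only through the mutant group, so the count is a description. When a library was left out the minimum was applied anew, so the median was not always of the same 6 tRNAs. It was 0.14 without the middle parental library and 0.24 without the deepest one. Heavy-strand MT-TM joined the set in both cases, and MT-TL1 in the second.

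**Figure D4:**
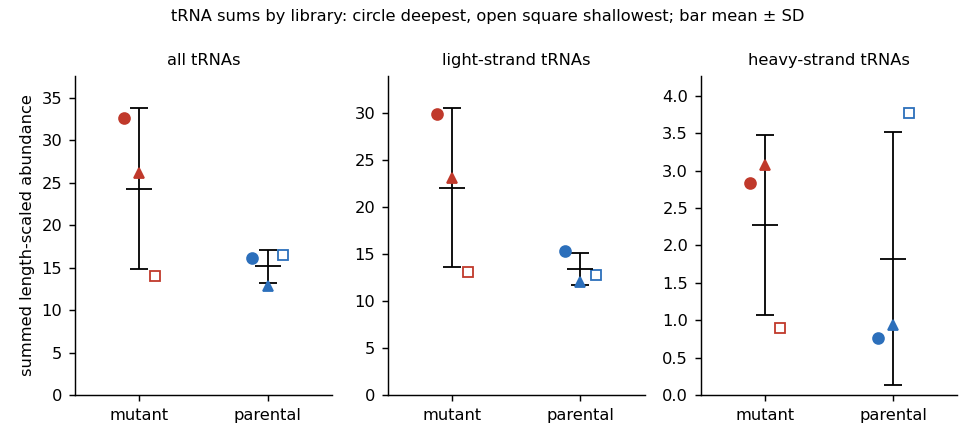
Summed abundance of all, light-strand and heavy-strand mitochondrial tRNAs in each library, mutant left of parental, with the mean ± SD of 3 libraries on linear axes from 0. The mutant libraries spread from 14 to 32.7 for all tRNAs, and the parental ones from 12.9 to 16.5.

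Per length, tRNAs were far below the other classes: MT-CO1 stood at 1465 times the abundance of MT-TA in the mutant and 1643 times in the parental group. Nuclear RNAs that lack a poly(A) tail were read beside them. The 19 in the table summed to an abundance of 188 in mutant and 122 in parental cells. Of the 10 with an abundance of at least 1, 8 lay higher and 2 lower (median log2 ratio 0.24), and none was called. RNA5-8S5, a copy of the 5.8S rRNA, had 69.6 in the mutant and 18.2 in the parental group. RPPH1, the RNA of nuclear RNase P and 1 of the 2 lower, had 3.8 in mutant against 5.96 in parental cells. For these 2 genes the authors' deposited table gave p 0.283 and 0.494. The part of RNAs without a poly(A) tail in the tRNA and rRNA values was not tested. Genes of the same GC content as the mitochondrial mRNAs had median log2 ratios between -0.18 and -0.05, so the mRNAs' median of 0.18 became 0.23 with that trend taken off.

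Pieces of the mitochondrial genome have been copied into nuclear chromosomes, and these copies can take up reads of the members. Of 405 such pseudogenes 79 had reads and 6 an abundance of at least 1, and those 6 lie together on chromosome 1. MTATP6P1 had 859 in the mutant and 656 in the parental group, and its share of the pair that it forms with MT-ATP6 was 12.7% in mutant and 12.4% in parental cells. MTND2P28 had 87.8 in mutant against 76 in parental cells and MTCO1P12 49.7 in mutant against 41.8 in parental cells, and MTND1P23, MTCO3P12 and MTCO2P12 had less than 3 in both groups. The mutant over parental ratio was 1.31 for MTATP6P1 and 1.28 for MT-ATP6, 1.16 for MTND2P28 and 1.19 for MT-ND2, and 1.19 for MTCO1P12 and 1.29 for MT-CO1. It was 1.04 for MTND1P23 and 1.05 for MT-ND1, and 1.46 for MTCO2P12 and 1.13 for MT-CO2. For MTCO3P12 and MT-CO3 the direction differed, at 1.6 for the copy and 0.991 for the gene. None of the copies was called, and the sources used here do not say how reads were split within a pair, so MT-ATP6 is uncertain by the share of its copy.

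The closeness of that pair is shown by a stretch of 90 bases. MT-ATP6 and MTATP6P1 differ at 10 of 681 bases (98.5% identity), and 4 of the differences fall in this stretch, marked by capitals. Sequences are from GENCODE release 29 on hg38, plus strand.
MT-ATP6, chrM:8629-8718: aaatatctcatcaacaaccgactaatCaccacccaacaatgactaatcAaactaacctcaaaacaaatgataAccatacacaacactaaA
MTATP6P1, chr1:633798-633887: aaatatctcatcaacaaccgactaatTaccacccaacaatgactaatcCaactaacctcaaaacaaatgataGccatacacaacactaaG

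Nuclear genes that copy, transcribe, cut and translate the mitochondrial genome lay lower more often than higher, by a small shift, whereas the mitochondrial mRNAs lay higher more often. The translation factors among these nuclear genes went the other way. Of 115 nuclear genes of these kinds, all with an abundance of at least 1, 47 lay higher and 68 lower, and their median log2 ratio was -0.07. Over all genes at that minimum 7342 lay higher and 7514 lower, with a median of -0.01. None of the 115 was called on its most abundant transcript, a call made for 0.0404% of all genes at that minimum. On that transcript 2 of the 115 had an unadjusted p under 0.05 as higher and 13 as lower, beside 5.27% and 8.53% of all genes at that minimum. P-values below are of that transcript in the authors' deposited table. For upkeep of the DNA, 4 lay higher and 14 lower (median -0.20). TFAM, which packs the genome and starts its transcription, had 20.2 in the mutant and 30.5 in the parental group (p 0.0503, adjusted p 0.703), and MGME1, an exonuclease of DNA ends, 17.3 in mutant against 33.1 in parental cells (p 0.00368, adjusted p 0.46).

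For transcription, 4 lay higher and 5 lower (median -0.14). POLRMT, the polymerase, had 22.8 in mutant against 18.4 in parental cells, TEFM, its elongation factor, 9.07 in mutant against 10.1 in parental cells, and TFB1M, a methyltransferase of the 12S rRNA, 10.3 in mutant against 7.91 in parental cells. Among genes of RNA cutting, tails and decay 9 lay higher and 14 lower (median -0.09). TRMT10C, a subunit of mitochondrial RNase P, had 11.3 in the mutant and 16.2 in the parental group, and LRPPRC, which keeps mRNAs stable, 28.3 in mutant against 40.5 in parental cells. MTPAP, which adds poly(A) tails, had 6.78 in mutant against 6.05 in parental cells, and ELAC2, which cuts the 3′ ends of tRNAs, 16.6 in mutant against 20.6 in parental cells. For all 7 genes of this paragraph the authors' deposited table gave an adjusted p of 0.703 or more.

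Of the enzymes that modify tRNA and rRNA 9 lay higher and 18 lower (median -0.04), with QTRT2, of queuosine synthesis, at 5.85 in mutant against 11.7 in parental cells (adjusted p 0.622). Aminoacyl-tRNA synthetases, which charge the tRNAs, had 9 higher and 14 lower (median -0.17), with GARS, shared with the cytosol, at 109 in mutant against 163 in parental cells and YARS2, for tyrosine, at 9.49 in mutant against 13.5 in parental cells. Translation factors were the list with more genes higher, 12 against 3 lower (median 0.17). OXA1L, which inserts new subunits into the inner membrane, had 81.8 in the mutant and 55.7 in the parental group, for which the authors' deposited table gave p 0.000803, adjusted 0.287. GFM1, an elongation factor, had 8.36 in mutant against 13.8 in parental cells. These lists and the mitochondrial classes were set side by side as descriptions, and the differences between them were not tested.

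**Figure D5:**
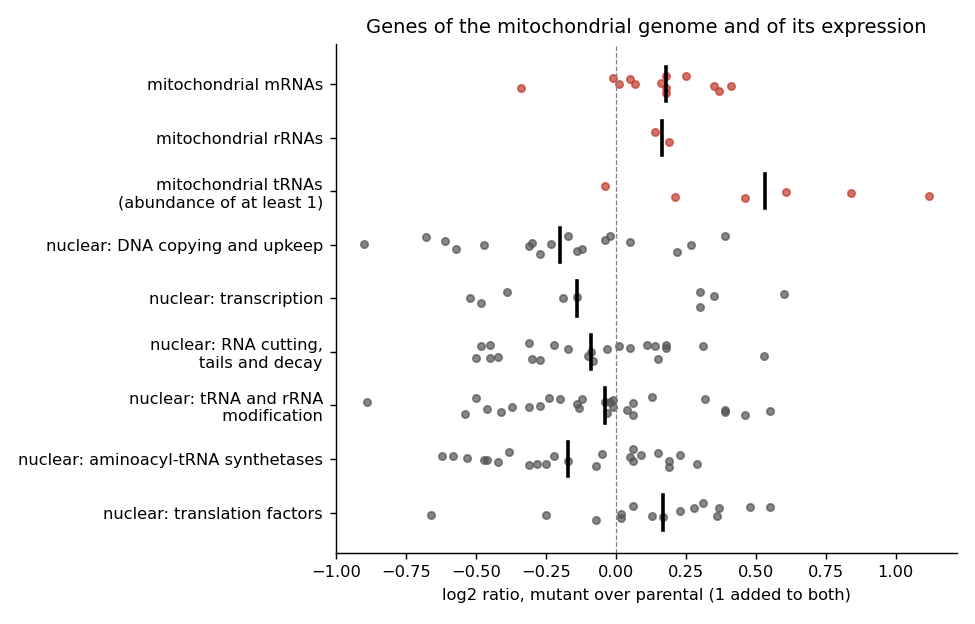
Log2 ratio of mutant over parental abundance, with 1 added to both, for each mitochondrial class and 6 lists of nuclear genes of mitochondrial gene expression; each point is a gene and each bar a median. The mitochondrial mRNAs have a median of 0.18 and the DNA upkeep genes one of -0.20.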

How the data were processed

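The table holds 203376 transcripts, of which 140552 have a p-value, with means for the 3 mutant and the 3 parental libraries. A transcript without these means was taken to have no reads. Per the submitters' processing notes, reads went through bcl2fastq, STAR and Partek on hg38; the sources used here give no versions, annotation or filters. Per the file headers, the LSMean columns are deposited scores that hold a mean for each group, and the deposited signal called total counts equalled 3 times the sum of both means. A total of 6 marks a transcript with no reads. The deposited p-values and ratio are the authors' own, also held as scores.

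From these values the abundance was the mean minus 1, summed by gene, and log2 ratios were taken after 1 was added. What 1 read adds to a mean was learnt, library by library, from transcripts with reads in 1 library, and reads were accepted where whole numbers gave both group means within a fraction of 3e-14, and the deposited p-value was met within 1e-11 when log values were compared at equal variance (4 degrees of freedom). The largest gap was 4.6e-14, and the next best reads missed by at least 1.2e-05. Of the 15 mRNAs and rRNAs 6 could be decoded, and 15 tRNAs; 9 mRNAs and rRNAs could not. Depth was estimated from the same steps, assuming a like mean transcript length in each library. Transcript names were matched to GENCODE release 29 (99.06%), which gave lengths, GC content and positions.

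The design named a fit of single libraries where given and otherwise a description of the authors' values, and the second was used for calls, at an adjusted p under 0.05. Exact permutation tests over the 6 libraries were two-sided. All members may be named, and from each nuclear list the 4 genes with the smallest p; POLRMT, LRPPRC, MTPAP, ELAC2 and TRMT10C and the copy MTCO2P12 were picked after values had been seen, for their roles. The members and lists were chosen with earlier results of these data known. Alternatives were another added value, other filters, rescaling to genes outside the mitochondrial genome, removal of a GC trend, adding nuclear copies, abundance times length, other thresholds and leaving out libraries. Tools were numpy 2.4.6, scipy 1.17.1, pandas 2.3.3 and biopython 1.88.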

Additional observations from a re-analysis of the deposited data

How the results depend on the processing

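The median log2 ratio ran from 0.18 to 0.23 for mitochondrial mRNAs and from 0.16 to 0.23 for rRNAs over the alternatives run, and the summed ratios from 1.14 to 1.19 and from 1.13 to 1.2. For tRNAs the median ran from 0.14 to 0.87 and the summed ratio from 1.32 to 1.94, both with single libraries left out. The abundance minimum was applied anew each time, so the tRNAs behind the median could change with the library left out. At an unadjusted p under 0.05 the count of members called was 1 in place of 0. With libraries left out in turn, log2 ratios changed sign for MT-ND5 (-0.02 to 0.16), MT-RNR1 (-0.01 to 0.32), MT-TA (-0.14 to 0.87), MT-TE (-0.23 to 0.08) and MT-TY (-0.10 to 1.13), and the cause was not tested. For MT-TE it was without the deepest or middle mutant or the shallowest parental library, and for MT-TY without the deepest mutant or the deepest or middle parental library. tRNAs with a read numbered 13 to 15, an alternative chosen after seeing the data. The lower nuclear genes numbered 61 to 72 and the higher ones 42 to 47. No paired analysis was possible because the deposited values are group means and the libraries recovered from them carry no replicate number. Other normalizations and count tests, and leaving out libraries for the members known as group means, were not run. Depth limits the tRNAs, with 13 to 162 reads a library.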
